A study of Mus musculus with 10 samples.

Results

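Transcripts of the mitochondrial respiratory chain and the ATP synthase were followed in 32Dcl3 cells, an IL-3-dependent mouse myeloblast line, after transcription was blocked. The genes were taken by name: every probe set whose platform annotation gives 1 symbol beginning with Nduf, Uqcr, Cox4 to Cox8, Sdha to Sdhd or Atp5, with the brightest probe set over the 10 arrays kept for each gene. This gave 87 of the 12394 genes with such a probe set, from 160 probe sets. They comprised 33 genes of complex I, 4 of complex II, 8 of complex III, 17 of complex IV, 17 of the ATP synthase and 8 assembly factors that the symbols also take in. Another 8 probe sets naming several genes were left out, among them the only ones for Ndufb4, Ndufa11 and Ndufs6.

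Each of 2 independent experiments supplied 5 samples of total RNA, hybridised to mouse arrays: cells with actinomycin D (10 µg/ml) for 2 h or 4 h under high IL-3 (1 ng/ml), cells with the same drug for 2 h or 4 h under low IL-3 (0.01 ng/ml), and cells at 0 h. All had been washed free of IL-3, so the low dose is a reduced supply of the cytokine and not its absence. The comparison of the doses asks which transcripts the cytokine keeps from decaying. The labels place the 0 h sample both after and immediately before the addition of actinomycin D. In the paper the drug came first, and culture with either IL-3 dose began at time 0. On that account 0 h lies after the drug, and 2 h and 4 h count from the addition of IL-3. The drug was then present for somewhat longer than these times. Every value below is an array intensity on a linear scale, normalised so that arrays can be set side by side. It is relative to the rest of the array and not an amount per cell, and in such bulk samples fewer cells of a type and less RNA per cell cannot be told apart.

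Of the myeloblast markers checked, the primary granule genes Mpo (mean intensity 2246), Prtn3 (2171) and Ctsg (3754) and the receptor genes Il3ra (426) and Csf2rb (467) were present, while Elane (19.6), Kit (8.0) and Cd34 (5.8) were near the floor of the arrays. Some genes usually read as markers of other blood cells were also bright, among them Adgre1 (2969), Itga2b (1842), Cpa3 (1243) and Pf4 (881). Cd3e (1.4) and Hba-a1 (2.7) were not. Summed within an array, the 5 macrophage markers came to 3453 to 4050, most of it from Adgre1. The 5 erythroid and megakaryocyte markers came to 2263 to 3263, most of it from Itga2b and Pf4. The 4 mature granulocyte markers came to 156 to 563. Some such markers were called higher at 4 h than at 0 h. Over all probe sets 9.67% were called higher under high IL-3 and 15.3% under low IL-3, and 35.4% and 38.3% lower. Of mast cell and basophil markers 2 of 3 were higher in each course (median log2 change 0.88 under high IL-3 and 0.57 under low IL-3). Of macrophage markers 1 of 4 was higher under high IL-3 and 2 of 4 under low IL-3 (median 0.31 and 0.39). Of mature granulocyte markers 0 of 2 were higher under high IL-3 and 1 of 2 under low IL-3. Of erythroid and megakaryocyte markers it was 1 of 3 in each. Of 5 myeloblast markers tested, 1 was higher and 2 lower under high IL-3 (median −0.13). In low IL-3, 2 of them were higher and 2 lower (median −0.155). The part of these shifts in the changes of the respiratory chain genes was not tested. The muscle genes Acta1 (15.6), Myh1 (5.1) and Tnnt3 (6.8) were at that floor too and Ckm was at 62.4, and these markers are given again beside the muscle isoforms of complex IV. Median array intensities lay between 48.8 and 53.2 at 4 h, against 70.6 and 58.7 at 0 h.

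The respiratory chain sits in the inner mitochondrial membrane. Complex I takes electrons from NADH and complex II from succinate, complex III passes them by way of ubiquinone and cytochrome c, and complex IV hands them to oxygen. The protons pumped on the way drive the ATP synthase, a rotary enzyme with a soluble F1 head and a membrane-bound Fo ring. Most subunits are encoded in the nucleus, a few in mitochondrial DNA, and dedicated assembly factors, which do not stay in the finished enzyme, put them together.

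Most of these transcripts kept their signal through 4 h of transcription block, and a small group lost more than 50% of it. Of the 87, 83 had a mean of 50 or more over the arrays and were tested, from 73.7 (Cox7a1) to 8240 (Uqcrb). At 4 h the median signal of the genes was 105% of the 0 h signal under high IL-3 and 109% under low IL-3, while the median over all 11856 tested probe sets was 93.5% and 92.4%. At 2 h the genes stood at 101% under high IL-3 and 102% under low IL-3, against 95% and 96.6% over all probe sets. The experiments gave different levels: the 4 h median of the genes was 100% and 109% under high IL-3 and 102% and 114% under low IL-3 in experiments 1 and 2. The median of all probe sets moved with them, at 88.9% and 95.8% under high IL-3 and at 85.0% and 96.6% under low IL-3. Of the complexes and the assembly factors, only the assembly factors had medians below 100% at 4 h, with 66.0% under high IL-3 and 65.0% under low IL-3.

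In high IL-3, 11 of the 83 genes (13.3%) were higher at 4 h than at 0 h and 10 (12%) were lower by limma at an adjusted p under 0.05. Over all probe sets tested 9.67% were called higher and 35.4% lower. In low IL-3, 27 of the 83 (32.5%) were higher and 10 (12%) lower, against 15.3% and 38.3% of all probe sets. The courses share their 0 h arrays. The same 10 genes were lower in both, and 10 genes were higher in both, while the difference of the courses at 4 h passed the test for none. The higher calls rested in part on single arrays. Without the 0 h array of experiment 2 there were 1 under high IL-3 and 13 under low IL-3, and without the 4 h low IL-3 array of experiment 2 there were 12 under low IL-3. The 11 under high IL-3 became 1 without the 4 h high IL-3 array of experiment 2, 6 without that of experiment 1 and 7 without either 2 h low IL-3 array. The 10 lower calls under high IL-3 became 6 without the 4 h high IL-3 array of experiment 2. Kept with each array left out in turn were Ndufb7 under high IL-3 and, under low IL-3, Ndufb7, Ndufb10, Ndufb2, Ndufs8, Ndufa3, Ndufa10, Uqcr11, Atp5j2 and Atp5o. The median log2 change of the genes was 0.06 under high IL-3 and 0.11 under low IL-3, where the median of all probe sets was −0.10 and −0.12. Relative to the median of all probe sets the genes thus stood 0.16 higher under high IL-3 and 0.23 higher under low IL-3, and 70 of the 83 lay above it in each course. A log2 change below −1 was found in 4 of the 83, all of them assembly factors, in both courses, while 16.2% of all probe sets passed that mark under high IL-3 and 18% under low IL-3.

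**Figure D1:**
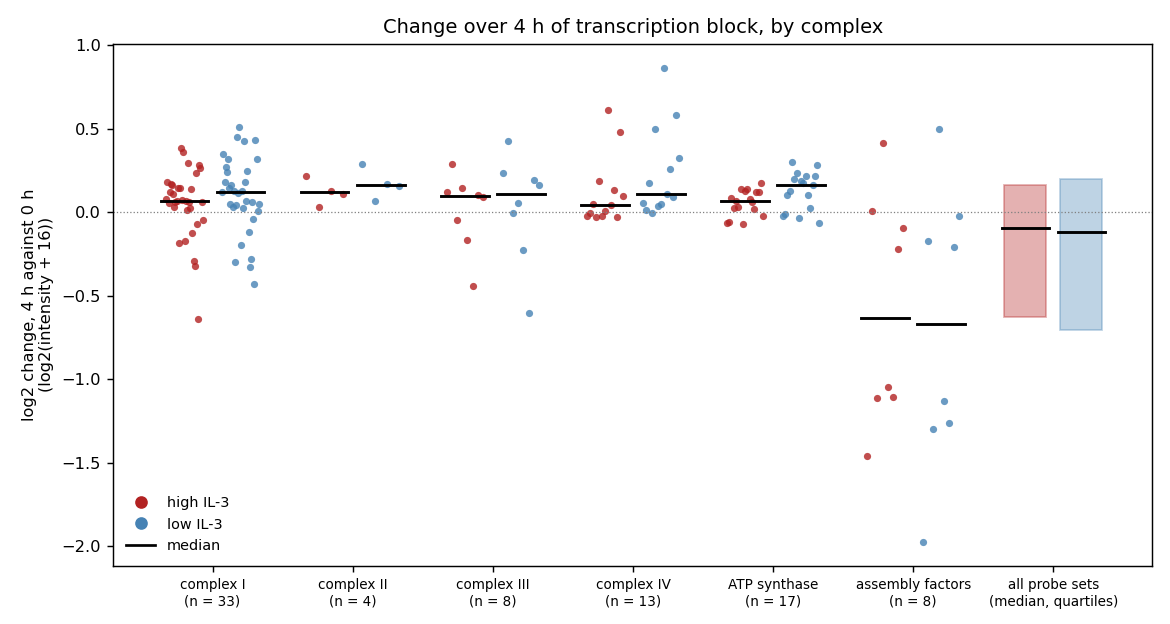
Log2 change from 0 h to 4 h of each tested gene (points), by complex, with red points at the left for high IL-3 and blue points at the right for low IL-3, with the median of each group as a black line. The boxes at the right give the quartiles of all 11856 probe sets around their medians of −0.10 under high IL-3 and −0.12 under low IL-3. All 75 subunits lie above −1, and 4 of the 8 assembly factors lie below it in both courses.

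The sign of a small change depended on how the arrays were scaled. With arrays scaled to a common 75th percentile, the median change of all probe sets from 0 h to 4 h was 0.31 under high IL-3 and 0.30 under low IL-3, in place of −0.10 and −0.12. The genes stayed above that median by 0.18 under high IL-3 and 0.26 under low IL-3 with this scaling, which moves both medians nearly alike. Under quantile normalization they stood above it by only 0.02 and 0.09. All 11 higher calls under high IL-3 and all 27 under low IL-3 were kept under the 75th percentile, Gapdh, quantile and median scalings. Each of these scalings raised the median change of all probe sets in both courses, Gapdh scaling least. A higher call could thus hardly be lost under them, and its being kept is no test of it. Of the 10 lower calls, those of Ndufaf1, Ndufaf4, Ndufaf7 and Sdhaf1 were kept under all 4, and small falls of complex subunits turned positive under some, as given with each. The changes below are on the deposited scale unless called relative, and the shift to the relative scale is the median of all probe sets. The study itself puts a 2 h or 4 h value above that at 0 h down to noise, because transcription was blocked. A higher call here is a call on signal relative to the array.

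**Figure D2:**
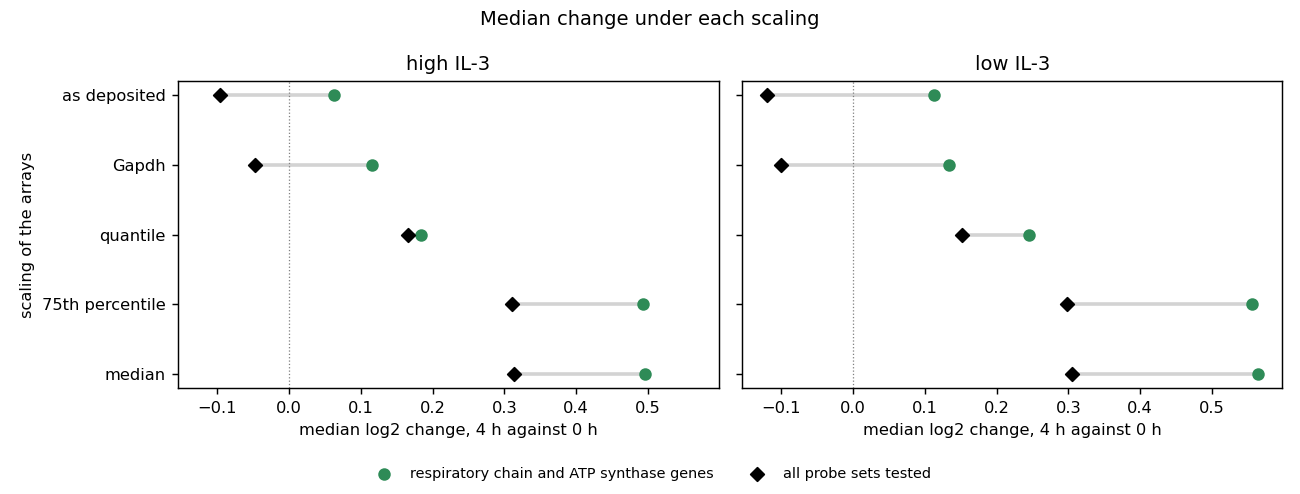
Median log2 change from 0 h to 4 h of the 83 tested genes (green circles) and of all 11856 probe sets (black diamonds), under high IL-3 (left) and low IL-3 (right), with the arrays as deposited and under 4 other scalings. The median of the genes lies to the right of the median of all probe sets in every row, by 0.23 under low IL-3 as deposited and by 0.02 under high IL-3 after quantile normalization.

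Complex I, the NADH dehydrogenase, gave calls in both directions. In high IL-3, 6 of its 33 genes (18.2%) were higher and 4 (12.1%) lower at 4 h than at 0 h. Under low IL-3 10 (30.3%) were higher and 4 (12.1%) lower. Over all probe sets 9.67% were higher and 35.4% lower under high IL-3, and 15.3% and 38.3% under low IL-3. The 6 core genes tested, whose products make up the peripheral arm and in most cases carry the flavin or iron-sulfur clusters, were split: Ndufs8 and Ndufv1 were higher and Ndufs1, Ndufs3 and Ndufs7 lower, in both courses. Among the 27 accessory genes 4 were higher and 1 lower under high IL-3, and 8 were higher and 1 lower under low IL-3.

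Ndufs7, a core subunit that binds the last iron-sulfur cluster before ubiquinone, had intensities of 1416 and 1190 after 4 h of high IL-3 and 1642 and 1379 after 4 h of low IL-3, against 2374 and 1739 at 0 h. All 4 arrays at 4 h were below both arrays at 0 h. The log2 change was −0.64 ± 0.10 (SE; adjusted p = 7.5e-05) under high IL-3 and −0.43 ± 0.10 (adjusted p = 0.0022) under low IL-3. Relative to the median of all probe sets it was −0.54 under high IL-3 and −0.31 under low IL-3, but under 75th percentile and median scaling the low IL-3 change was 0.01 and 0.02. Ndufs3, a core subunit of the peripheral arm, had 1471 and 1318 after 4 h of high IL-3 and 1349 and 1532 after 4 h of low IL-3, against 1722 and 1771 at 0 h, so that the 4 h arrays were again below both 0 h arrays. Its change was −0.32 under high IL-3 and −0.28 under low IL-3, and 0.10 and 0.16 under 75th percentile scaling. Ndufs1, the largest core subunit, had 1175 and 915.7 after 4 h of high IL-3 and 1068 and 955.8 after 4 h of low IL-3, against 1522 and 1067 at 0 h. Here the falls were within each experiment, since the 4 h arrays of experiment 1 were no lower than the 0 h array of experiment 2. The change was −0.29 under high IL-3 and −0.33 under low IL-3, and 0.13 and 0.11 under 75th percentile scaling.

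The core genes Ndufs8 and Ndufv1 went the other way. Ndufs8 had intensities of 2634 and 3017 after 4 h of high IL-3 and 3072 and 3192 after 4 h of low IL-3, against 2316 and 2320 at 0 h, without overlap between the times. The fitted log2 change came to 0.28 ± 0.07 (SE; adjusted p = 0.006) under high IL-3 and 0.43 ± 0.07 (adjusted p = 0.00015) under low IL-3. All 6 tested probe sets of Ndufs8 were called higher under low IL-3. Under high IL-3 another was called (0.41, adjusted p = 0.0093). Those at 0.20, 0.19, 0.16 and 0.11 were not (adjusted p = 0.062, 0.063, 0.15 and 0.32). Ndufv1, which binds the flavin and NADH, had 1656 and 1563 after 4 h of high IL-3 and 1717 and 1637 after 4 h of low IL-3, against 1360 and 1318 at 0 h. Its change was 0.26 under high IL-3 and 0.32 under low IL-3. On 2 further probe sets of Ndufv1 the high IL-3 value was 0.095 and 0.075 and passed no test (adjusted p = 0.46 and 0.55). The remaining core gene tested, Ndufv2, had log2 changes of 0.06 under high IL-3 and 0.01 under low IL-3 and passed no test.

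Of the accessory subunits, which surround the core and take no part in electron transfer, Ndufb7 had 3138 and 2837 after 4 h of high IL-3 and 3340 and 3192 after 4 h of low IL-3, against 2577 and 2287 at 0 h. On the log2 scale this was a change of 0.30 ± 0.07 (SE; adjusted p = 0.0031) under high IL-3 and 0.42 ± 0.07 (adjusted p = 0.00012) under low IL-3. Every 4 h array was above both 0 h arrays. Ndufb10 had 1703 and 1895 after 4 h of high IL-3 and 1894 and 1870 after 4 h of low IL-3, against 1485 and 1274 at 0 h, and had log2 changes of 0.38 under high IL-3 and 0.45 under low IL-3. Ndufb2 had 1501 and 1524 after 4 h of high IL-3 and 1572 and 1789 after 4 h of low IL-3, against 1316 and 1045 at 0 h, and its change of 0.51 under low IL-3 was the highest of complex I (adjusted p = 0.0013), with 0.36 under high IL-3. The other accessory genes higher under low IL-3 were Ndufa10 (0.35), Ndufa3 (0.32), Ndufa13 (0.27), Ndufc1 (0.25) and Ndufa2 (0.24), with values of 0.12 to 0.18 under high IL-3 that did not pass the test there. Ndufs4 was called under high IL-3 alone (0.23, adjusted p = 0.044, against 0.06 under low IL-3), a difference of the courses that did not itself pass a test (adjusted p = 0.71). Its other tested probe sets had the call in the other course, with 0.23 and 0.26 under high IL-3 that did not pass (adjusted p = 0.33 and 0.15) and 0.59 and 0.39 under low IL-3 that did (adjusted p = 0.014 and 0.032).

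Ndufab1, the mitochondrial acyl carrier protein, was the accessory gene called lower. It had 3644 and 3073 after 4 h of high IL-3 and 3386 and 2821 after 4 h of low IL-3, against 4284 and 3382 at 0 h, which fell within each experiment while the experiments themselves overlapped. Its change was −0.18 under high IL-3 and −0.30 under low IL-3, and it turned to 0.24 under high IL-3 and 0.14 under low IL-3 under 75th percentile scaling and to 0.04 under low IL-3 with the second, dimmer probe set. Ndufb3 (−0.17 under high IL-3 and −0.20 under low IL-3) and Ndufc2 (−0.12 under high IL-3 and −0.12 under low IL-3) had the next smallest values of the accessory genes under low IL-3 and passed no test.

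Complex II, the succinate dehydrogenase shared with the citrate cycle, had 1 of its 4 genes called, and that call was not made on the gene's second probe set. It was a higher call in both courses (25%, against 9.67% of all probe sets under high IL-3 and 15.3% under low IL-3). Sdha, the flavoprotein with the active site, had 2220 and 2019 after 4 h of high IL-3 and 2286 and 2168 after 4 h of low IL-3, against 1996 and 1660 at 0 h. In the fit it had a log2 change of 0.22 ± 0.08 (SE; adjusted p = 0.041) under high IL-3 and 0.29 ± 0.08 (adjusted p = 0.0072) under low IL-3. The second probe set of Sdha gave 0.13 under high IL-3 and 0.21 under low IL-3 (adjusted p = 0.34 and 0.096). The iron-sulfur subunit gene Sdhb had 2454 and 2408 after 4 h of high IL-3 and 2374 and 2612 after 4 h of low IL-3, against 2471 and 2282 at 0 h, and its change was 0.03 under high IL-3 and 0.07 under low IL-3. The membrane anchor Sdhc had log2 changes of 0.13 under high IL-3 and 0.17 under low IL-3 and Sdhd of 0.11 under high IL-3 and 0.16 under low IL-3, and neither passed the test in either course.

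Complex III, the cytochrome bc1 complex, was split as well. Of its 8 genes 1 was higher and 2 lower under high IL-3, and 3 were higher and 2 lower under low IL-3. Under high IL-3 these are 12.5% and 25%, against 9.67% and 35.4% of all probe sets. Under low IL-3 they are 37.5% and 25%, against 15.3% and 38.3%. Uqcrfs1, the Rieske iron-sulfur protein, had the lowest change of all complex subunits under low IL-3. Its intensities were 2346 and 2042 after 4 h of high IL-3 and 1965 and 1943 after 4 h of low IL-3, against 3182 and 2796 at 0 h. At 4 h 73.4% ± 0.502 (SD, n = 2) of its 0 h signal was left under high IL-3 and 65.6% ± 5.46 under low IL-3, and the 4 h arrays lay below both 0 h arrays. As a log2 change this came to −0.44 ± 0.08 (SE; adjusted p = 0.00021) under high IL-3 and −0.61 ± 0.08 (adjusted p = 7.3e-06) under low IL-3, or −0.35 and −0.49 relative to the median of all probe sets. Under 75th percentile scaling neither call was kept, with −0.01 under high IL-3 and −0.16 under low IL-3 (adjusted p = 0.88 and 0.08). Uqcrc2, a core protein with no redox group, had 3640 and 2815 after 4 h of high IL-3 and 3315 and 2837 after 4 h of low IL-3, against 4015 and 3211 at 0 h. Its change of −0.17 under high IL-3 and −0.23 under low IL-3 became 0.26 and 0.22 under 75th percentile scaling, and its second probe set gave −0.08 and −0.15 and passed no test (adjusted p = 0.4 and 0.11). The other core protein gene, Uqcrc1, had log2 changes of 0.15 under high IL-3 and 0.06 under low IL-3 and passed no test.

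Small subunits of complex III were the ones called higher. Uqcr11 had 1793 and 2152 after 4 h of high IL-3 and 2017 and 2307 after 4 h of low IL-3, against 1593 and 1613 at 0 h, with no overlap between the times, and its change was 0.29 under high IL-3 and 0.42 under low IL-3 (adjusted p = 0.019 and 0.0013). Uqcr10 (0.23) and Uqcrh (0.19), the hinge protein, were called under low IL-3. Uqcrb, the brightest gene tested, had 8310 and 7860 after 4 h of high IL-3 and 7763 and 8926 after 4 h of low IL-3, against 8507 and 8216 at 0 h, and its change was −0.05 under high IL-3 and −0.01 under low IL-3.

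In complex IV, the cytochrome c oxidase, no gene was called lower in either course, against 35.4% and 38.3% of all probe sets. Of the 13 tested, 2 (15.4%) were higher under high IL-3 and 5 (38.5%) under low IL-3, against 9.67% and 15.3% of all. Several subunits of complex IV exist as a ubiquitous and a tissue-specific form, which are given apart. Cox5a had 6460 and 6781 after 4 h of high IL-3 and 6640 and 6801 after 4 h of low IL-3, against 6534 and 6772 at 0 h, which is 99.5% ± 0.892 (SD, n = 2) of the 0 h signal under high IL-3 and 101% ± 0.855 under low IL-3. Its arrays all lay within 6460 to 6968. Cox5b, which binds zinc, had log2 changes of 0.05 under high IL-3 and 0.17 under low IL-3, and the low IL-3 value passed the test (adjusted p = 0.02). The ubiquitous forms Cox4i1 (−0.02 under high IL-3 and 0.05 under low IL-3), Cox6a1 (−0.03 under high IL-3 and −0.01 under low IL-3), Cox6b1 (−0.02 under high IL-3 and 0.03 under low IL-3), Cox7a2 (0.04 under high IL-3 and 0.11 under low IL-3) and Cox8a (−0.03 under high IL-3 and 0.09 under low IL-3) passed no test. Cox7a2l, which joins complexes III and IV into supercomplexes, was higher under low IL-3 (0.26, adjusted p = 0.0034) and had a log2 change of 0.13 under high IL-3.

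The heart and muscle forms were dim. Cox7a1 had 78.56 and 93.07 after 4 h of high IL-3 and 95.09 and 116.4 after 4 h of low IL-3, against 62.90 and 40.23 at 0 h. Both 0 h arrays were below every 4 h array, and the 4 h signal was 125% of 0 h under high IL-3 and 151% under low IL-3 in experiment 1, and 231% and 289% in experiment 2. The log2 change was 0.61 ± 0.21 (SE; adjusted p = 0.025) under high IL-3 and 0.86 ± 0.21 (adjusted p = 0.0023) under low IL-3, the highest change of all 83 genes in each course. Cox6a2 had 91.25 and 102.0 after 4 h of high IL-3 and 98.43 and 154.0 after 4 h of low IL-3, against 83.69 and 81.81 at 0 h, with a change of 0.19 under high IL-3 and 0.50 under low IL-3 and a pass under low IL-3 alone (adjusted p = 0.029). Cox8c, a form known from testis, had 199.7 and 291.1 after 4 h of high IL-3 and 267.0 and 252.9 after 4 h of low IL-3, against 163.6 and 173.5 at 0 h, and had log2 changes of 0.48 under high IL-3 and 0.58 under low IL-3. The muscle marker Ckm had log2 changes at 4 h as well (0.46 under high IL-3 and 0.52 under low IL-3, of which the low IL-3 value passed the test). The summed level of the 4 muscle markers was 104 and 111 at 4 h under high IL-3 and 80 and 150 at 4 h under low IL-3, against 60 and 87 at 0 h. At 2 h it was 49 and 116 under high IL-3 and 47 and 96 under low IL-3. The part of this in the Cox7a1 and Cox6a2 values was not tested.

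The remaining 4 genes were below the limit of 50 and entered no test: Cox4i2 (mean intensity 16.7), Cox6b2 (15.2), Cox8b (23.8) and Cox7c (25.3). Cox4i2, Cox6b2 and Cox8b are the tissue-restricted forms of their subunits. Cox7c has 1 form and is represented here by its brightest probe set. This read 70.4 in the 0 h array of experiment 1 and between 14.3 and 28.3 in the other 9 arrays. The other probe set of Cox7c was dimmer still (mean intensity 10.4). It read 39.68 in the 0 h array of experiment 1 and between 2.514 and 12.95 in the other 9 arrays.

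Ndufa4, long counted with complex I and now with complex IV, read differently in the experiments. It read 1553 and 2852 at 4 h under high IL-3 and 2088 and 2929 at 4 h under low IL-3, against 1545 and 2506 at 0 h, while at 2 h it read 2700 and 2630 under high IL-3 and 1652 and 2804 under low IL-3. Its change at 4 h was 0.10 under high IL-3 and 0.33 under low IL-3, and neither value passed the test.

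Of the 17 ATP synthase genes tested none was lower in either course, against 35.4% and 38.3% of all probe sets. All 17 lay above the median of all probe sets in both courses. In high IL-3, 1 (5.88%) was higher and in low IL-3 7 (41.2%) were, against 9.67% and 15.3% of all probe sets. Other probe sets of Atp5h (0.21, adjusted p = 0.0092), Atp5j2 (0.19, adjusted p = 0.04) and, dimmer, Atp5g2 (1.03, adjusted p = 0.00031) were also called higher under high IL-3. Atp5o, the stalk subunit that holds F1 to Fo, was called in both courses. It had 4035 and 3683 after 4 h of high IL-3 and 4340 and 3986 after 4 h of low IL-3, against 3623 and 3224 at 0 h, with all 4 h arrays above both 0 h arrays. The fitted log2 change came to 0.17 ± 0.06 (SE; adjusted p = 0.029) under high IL-3 and 0.28 ± 0.06 (adjusted p = 0.00096) under low IL-3. The catalytic F1 genes did not pass a test: Atp5a1 had 4574 and 4432 after 4 h of high IL-3 and 4500 and 4782 after 4 h of low IL-3, against 4681 and 4762 at 0 h (−0.07 under high IL-3 and −0.03 under low IL-3), and Atp5b had 5593 and 5628 after 4 h of high IL-3 and 5384 and 6221 after 4 h of low IL-3, against 5471 and 6233 at 0 h (−0.06 under high IL-3 and −0.01 under low IL-3). Of the 5 F1 genes only Atp5e was called, under low IL-3 (0.30, adjusted p = 0.0087, against 0.07 under high IL-3).

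Subunit c, which forms the rotating ring, is encoded by 3 genes whose mature proteins are the same, and they are given one by one. Atp5g1 had 1998 and 2496 after 4 h of high IL-3 and 2249 and 2805 after 4 h of low IL-3, against 2071 and 2311 at 0 h, and its change was 0.03 under high IL-3 and 0.20 under low IL-3. Atp5g2 had 3226 and 3755 after 4 h of high IL-3 and 3503 and 3967 after 4 h of low IL-3, against 3125 and 3200 at 0 h, and its change was 0.14 under high IL-3 and 0.24 under low IL-3. Both were called higher under low IL-3 (adjusted p = 0.046 and 0.011). Atp5g3 had 5082 and 4874 after 4 h of high IL-3 and 4995 and 5212 after 4 h of low IL-3, against 5180 and 5271 at 0 h, had log2 changes of −0.07 under high IL-3 and −0.03 under low IL-3, and passed no test. Of the other stalk and Fo genes, Atp5j2 (0.22), Atp5mpl (0.21) and Atp5h (0.18) were higher under low IL-3, and Atp5pb, the peripheral stalk subunit b, had the smallest value there (−0.07, adjusted p = 0.32).

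The assembly factors held the largest falls. Of the 8, 4 (50%) were lower in both courses and 1 (12.5%) was higher under low IL-3 alone. Over all probe sets 35.4% were lower under high IL-3 and 38.3% under low IL-3, and 15.3% were higher under low IL-3. Ndufaf1, needed for the early membrane intermediate of complex I, had 160.1 and 97.86 after 4 h of high IL-3 and 98.12 and 70.30 after 4 h of low IL-3, against 444.5 and 314.8 at 0 h. At 4 h 33.6% ± 3.49 (SD, n = 2) of the 0 h signal was left under high IL-3 and 22.2% ± 0.179 under low IL-3. On the log2 scale this was a change of −1.46 ± 0.17 (SE; adjusted p = 3e-06) under high IL-3 and −1.98 ± 0.17 (adjusted p = 9.2e-08) under low IL-3. At 2 h it read 320.7 and 180.9 under high IL-3 and 268.0 and 121.4 under low IL-3.

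Ndufaf4, which acts at an early step of complex I assembly, had 261.4 and 271.0 after 4 h of high IL-3 and 246.0 and 218.7 after 4 h of low IL-3, against 585.7 and 605.4 at 0 h, which is 44.7% ± 0.0990 of 0 h under high IL-3 and 39.1% ± 4.15 under low IL-3. In the fit it had a log2 change of −1.12 ± 0.14 (SE; adjusted p = 7.1e-06) under high IL-3 and −1.30 ± 0.14 (adjusted p = 1.1e-06) under low IL-3. A second probe set gave −1.54 under high IL-3 and −1.27 under low IL-3. Ndufaf7, an arginine methyltransferase that modifies a core subunit of complex I, had 168.9 and 84.44 after 4 h of high IL-3 and 149.1 and 83.77 after 4 h of low IL-3, against 386.5 and 180.4 at 0 h. The experiments differed in level, so that the 4 h arrays of experiment 1 were close to the 0 h array of experiment 2, and within each experiment the signal at 4 h was between 38.6% and 46.8% of that at 0 h. Its change was −1.04 under high IL-3 and −1.13 under low IL-3 (adjusted p = 6e-05 and 2.3e-05).

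Sdhaf1, which helps to place iron-sulfur clusters in the Sdhb protein, had 141.7 and 186.7 after 4 h of high IL-3 and 104.2 and 199.1 after 4 h of low IL-3, against 339.8 and 401.9 at 0 h. As a log2 change this came to −1.11 ± 0.16 (SE; adjusted p = 3.5e-05) under high IL-3 and −1.26 ± 0.16 (adjusted p = 7.8e-06) under low IL-3. The Sdhb transcript itself was at 0.03 and 0.07. Ndufaf3 (0.01 under high IL-3 and −0.17 under low IL-3), Sdhaf2 (−0.22 under high IL-3 and −0.21 under low IL-3), which attaches the flavin to the Sdha protein, and Sdhaf4 (−0.10 under high IL-3 and −0.02 under low IL-3) passed no test. Ndufaf5 had 172.9 and 172.2 after 4 h of high IL-3 and 181.4 and 185.4 after 4 h of low IL-3, against 160.3 and 97.21 at 0 h, and its change was 0.42 under high IL-3 and 0.50 under low IL-3, of which the low IL-3 value passed the test (adjusted p = 0.029).

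**Figure D3:**
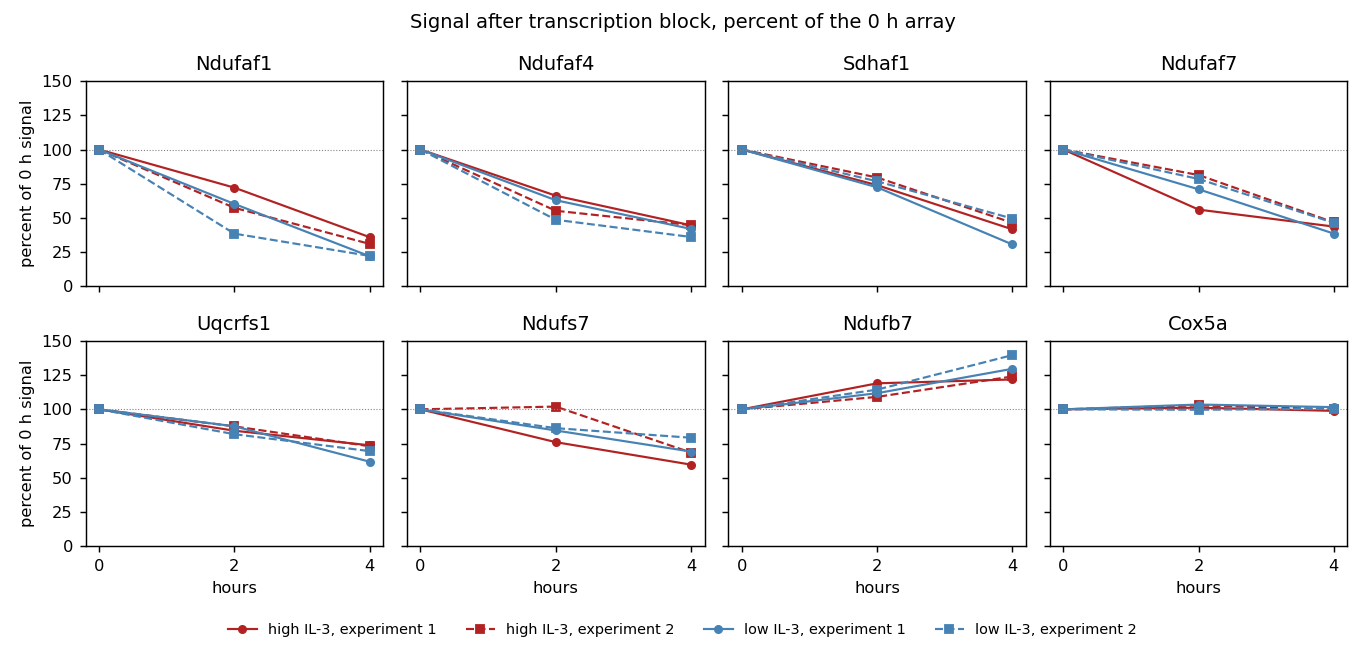
Signal of 8 genes as percent of the 0 h signal in that experiment at 0, 2 and 4 h, with red lines for high IL-3 and blue lines for low IL-3 and with experiment 1 as circles on solid lines and experiment 2 as squares on dashed lines. The 4 assembly factors in the upper row end between 22.1% and 49.6%, Uqcrfs1 and Ndufs7 between 59.6% and 79.3%, Ndufb7 between 121.8% and 139.6%, and Cox5a between 98.9% and 101.6%.

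Second probe sets often did not carry a call. Of 44 genes with 2 or more tested probe sets, the calls for 4 h against 0 h were the same across probe sets in 29 under high IL-3 and in 34 under low IL-3, and in none were 2 probe sets called in opposite directions. Probe sets without a call also count as the same here. Of 30 calls of genes whose second probe set could be read, 20 were made on it as well, 9 were lost and 1 turned positive. Those lost under high IL-3 were Ndufab1, Ndufs4, Ndufs8, Ndufv1, Sdha and Uqcrc2. In low IL-3 they were Sdha, Uqcr10 and Uqcrc2, and that of Ndufab1 turned positive. Some genes without a call had 1 on another probe set, in each case a higher one. In high IL-3 these were Atp5g2, Atp5h, Atp5j2, Cox5b, Cox7a2l, Ndufa10, Ndufb11, Ndufc1 and Uqcr10. In low IL-3 they were Atp5k, Ndufa12, Ndufa7, Ndufb11, Ndufs4 and Uqcrq. For the IL-3 comparison all 44 were without a call on every probe set.

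IL-3 dose made no difference that passed the test for any of these genes. With 2 h and 4 h averaged, 0 of the 83 were called higher and 0 lower under high IL-3 than under low IL-3 by limma, where 0.692% of all probe sets were called higher and 0.0169% lower. At 2 h the counts were again 0 and 0, against 0.059% and 0% of all probe sets, and at 4 h 0 and 0, against 0.388% and 0.0169%. At an unadjusted p under 0.05 there were 5 of the 83 with the times averaged, 2 at 2 h and 4 at 4 h, beside 1003, 868 and 867 of the 11856. The change of the IL-3 effect between the times, in which no probe set of the table was called, gave 0 calls and 4 genes at an unadjusted p under 0.05, beside 684 of all. With so few calls in the whole table a count of 0 among 83 is near that background.

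The intervals give the range of differences that the arrays allow. With 2 h and 4 h averaged, for the 72 complex subunits with a mean intensity from 500 upward, the 95% confidence interval of the log2 difference of high over low IL-3 (each gene on its own) lay within −0.27 to 0.27, and the differences themselves ran from −0.15 to 0.09 with standard errors of 0.03 to 0.11. For all 83 genes the interval stayed within ±0.5 in 80. At a single time the intervals were wider, and for the same 72 subunits they reached from −0.34 to 0.62 at 2 h and from −0.55 to 0.42 at 4 h. Atp5e had 0.20 at 2 h (95% interval of 0.02 to 0.39, adjusted p = 0.66) and −0.23 at 4 h (−0.42 to −0.05, adjusted p = 0.46), which cancel in the mean. With the times averaged the median difference was −0.03, against −0.01 over all probe sets. Above 0 were 23 of the 83, beside 5619 of the 11856. By complex the median was −0.02 in complex I, −0.03 in complex II, 0.00 in complex III, −0.05 in complex IV, −0.03 in the ATP synthase and 0.05 in the assembly factors. At 4 h none of the 13 genes of complex IV and 1 of the 17 of the ATP synthase was above 0, beside 5618 of the 11856. Their differences ran from −0.31 to 0.05, and none of these genes passed the test.

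In each experiment and at each time a high IL-3 array has a low IL-3 partner, which gives 4 pairs. High IL-3 was higher in 4 of 4 pairs for 4 of the 83 genes, Ndufaf1, Ndufaf4, Ndufab1 and Atp5pb, where 9.83% of all probe sets had that pattern. It was lower in 4 of 4 for 8 genes, Ndufa10, Ndufb8, Ndufa13, Ndufb9, Cox7a2l, Cox6a2, Cox7a1 and Atp5d, against 7.51% of all. On second probe sets the pattern of the higher genes was absent, with 2 of 4 pairs for Ndufaf4, 1 of 4 for Ndufab1 and 2 of 4 for Atp5pb, and Ndufaf1 has 1 tested probe set only. Of the lower genes, other probe sets of Ndufa10 and Cox7a2l were lower in 4 of 4 as well, while high IL-3 was higher in 2 of 4 pairs on that of Ndufb9 and in 1 of 4 on that of Atp5d.

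Ndufaf1 had the largest difference. The log2 of high over low IL-3 was 0.25 and 0.52 at 2 h and 0.63 and 0.40 at 4 h in experiments 1 and 2, with a fitted mean of 0.45 ± 0.12 (SE; 95% interval of 0.19 to 0.71; limma adjusted p = 0.14). Over the alternatives the adjusted p lay between 0.086 and 1.0, so that it was never past the threshold. The study's own measure was recomputed here from its description. Its g_area is the area between the curves of high and low IL-3, with ratios under high IL-3 limited to 1. Its g_score is that area over the variability at like signal. The study left unnamed outliers out of the variability, and the most variable probe sets were left out here in their place. By the recomputed g_score Ndufaf1 ranked 253 of 22690 probe sets. It was the only one of the 87 genes within the first 1000, a range that by construction takes in 4.41% of all. The g_area was above 0 for 11 of the 87, where 23.3% of all probe sets were, and for 10 of the 83 tested (30.5% of all tested). Without the limit 32 of the 87 were above 0 (46.1% of all) and 30 of the 83 tested (49.2%), and with it on both curves 24 (39.9%) and 22 (40%). Of the 8 assembly factors 6 were above 0 by the study's measure.

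At the other end, Cox6a2 had differences of −0.34 and −0.24 at 2 h and −0.09 and −0.53 at 4 h (mean −0.30 ± 0.13, adjusted p = 0.5), and Cox7a1 had −0.47 and −0.11 at 2 h and −0.23 and −0.28 at 4 h (mean −0.27 ± 0.15, adjusted p = 0.67). Both are dim genes. Among bright subunits Ndufa10 was lowest, at −0.07 and −0.18 at 2 h and −0.10 and −0.24 at 4 h (mean −0.15 ± 0.06, adjusted p = 0.42). For Ndufa4 a single array decided a call. Its pair differences were 0.70 and −0.09 at 2 h and −0.42 and −0.04 at 4 h, and with the 2 h high IL-3 array of experiment 2 left out it was called higher at 2 h (limma adjusted p = 0.0032), where the remaining pair is the one with 0.70. Without that array the IL-3 effect at 4 h was also called below that at 2 h for Ndufa4 (adjusted p = 0.0047) and for Atp5e (adjusted p = 0.017).

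**Figure D4:**
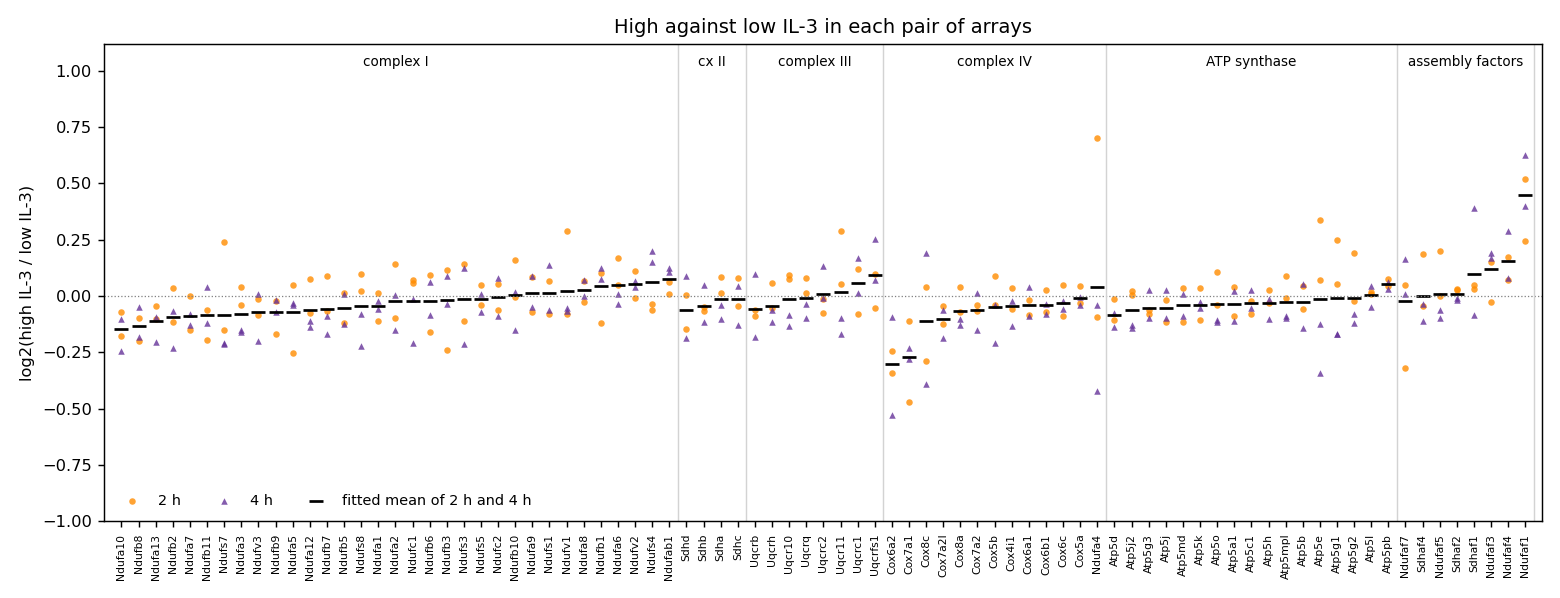
Log2 ratio of high over low IL-3 for each of the 83 tested genes, ordered within each complex (cx II is complex II), at 2 h (orange circles) and 4 h (purple triangles), 1 point per experiment, with the fitted mean of both times as a black bar. The bars of complex subunits lie between −0.30 and 0.09, the bar of Ndufaf1 lies at 0.45, and the isolated 2 h point at 0.70 is Ndufa4 in experiment 1.

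Other genes of the pathway, from lists written from general knowledge, were set beside these. None of the members of any of these lists was called for IL-3. From mitochondrial DNA 1 probe set was on the array, ND5, a core membrane subunit of complex I, with 3552 and 3382 after 4 h of high IL-3 and 3937 and 3789 after 4 h of low IL-3, against 5587 and 5355 at 0 h. It was lower in both courses (−0.66 under high IL-3 and −0.50 under low IL-3, adjusted p = 5.6e-06 and 8.3e-05), without overlap between the times, and under 75th percentile scaling it was at −0.23 and −0.06 and passed no test (adjusted p = 0.058 and 0.61). Its distance from the nuclear-encoded subunits was not tested.

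Of 28 tested genes for other assembly and biogenesis factors, 4 were higher (14.3%) and 8 lower (28.6%) under high IL-3, and 4 were higher and 10 lower (35.7%) under low IL-3. Over all probe sets 9.67% and 35.4% were called under high IL-3 and 15.3% and 38.3% under low IL-3. Under 75th percentile scaling 15 were higher and 7 lower under high IL-3, and 13 higher and 7 lower under low IL-3. Of all probe sets 49.9% were then higher and 22.1% lower under high IL-3, and 49.2% and 24.1% under low IL-3. Sco2, a copper chaperone of complex IV, had 17.22 and 6.098 after 4 h of high IL-3 and 20.69 and 11.46 after 4 h of low IL-3, against 473.6 and 296.9 at 0 h, and its change was −3.85 under high IL-3 and −3.62 under low IL-3. The 4 h values of Sco2 are at the floor of the arrays, where the constant added before the logarithm limits the change. Tmem70, an ATP synthase assembly factor, had 298.4 and 195.7 after 4 h of high IL-3 and 264.6 and 167.5 after 4 h of low IL-3, against 1228 and 984.0 at 0 h, and its change was −2.11 under high IL-3 and −2.30 under low IL-3. Coa7 (−1.78 under high IL-3 and −1.36 under low IL-3) and Coa6 (−0.98 under high IL-3 and −1.12 under low IL-3), both for complex IV, were lower too. Pet100 (0.62 under high IL-3 and 0.73 under low IL-3), for complex IV, Atpaf2 (0.58 under high IL-3 and 0.65 under low IL-3), for the F1 head, and Uqcc2 (0.35 under high IL-3 and 0.55 under low IL-3), for complex III, were higher in both courses. Factors of complex IV thus changed in either direction.

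Among 14 electron carrier and donor genes, 1 was higher (7.14%) and 4 lower (28.6%) under high IL-3, and 2 were higher and 2 lower (14.3% each) under low IL-3. The background was again 9.67% and 35.4% under high IL-3 and 15.3% and 38.3% under low IL-3. Cyc1, which carries the heme of cytochrome c1 in complex III, had log2 changes of −0.19 under high IL-3 and −0.25 under low IL-3, and Coq4, of ubiquinone synthesis, of 0.70 under high IL-3 and 0.68 under low IL-3. Of 15 citrate cycle and pyruvate dehydrogenase genes 0 were higher and 5 lower under high IL-3, and 1 was higher and 5 lower under low IL-3. The 33.3% lower in each course is near the same background. Dld, the dehydrogenase shared by several complexes, had 1243 and 1034 after 4 h of high IL-3 and 1120 and 821.8 after 4 h of low IL-3, against 1638 and 1528 at 0 h, and had log2 changes of −0.47 under high IL-3 and −0.71 under low IL-3. Idh3a (−0.42 under high IL-3 and −0.58 under low IL-3) and Fh1, fumarase (−0.32 under high IL-3 and −0.40 under low IL-3), were lower as well, and Ogdh was higher under low IL-3 (0.39, adjusted p = 0.011). Of the 4 genes for ATP export and regulation, the phosphate carrier Slc25a3 (−0.20 under high IL-3 and −0.18 under low IL-3) and the ADP/ATP carrier Slc25a5 (−0.16 under high IL-3 and −0.15 under low IL-3) were lower in both courses, Slc25a4 was lower under low IL-3 (−0.30), and Atpif1, the inhibitor of ATP hydrolysis, was higher under low IL-3 (0.19). Under 75th percentile scaling several of these falls turned positive in one course or both, those of Cyc1 (0.24 under high IL-3 and 0.20 under low IL-3), Slc25a3 (0.23 and 0.26), Slc25a5 (0.27 and 0.30) and Fh1 (0.11 and 0.05) in both, that of Idh3a (0.01) under high IL-3 and that of Slc25a4 (0.15) under low IL-3. With that scaling 0 genes of these 3 lists were lower in either course. Higher were 7 of the carriers and donors, 9 of the citrate cycle list and 4 of the export list under high IL-3, and 8, 8 and 3 under low IL-3, where 49.9% and 49.2% of all probe sets were higher.

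Transcripts of most nuclear regulators of these genes fell in both courses. Of 12 tested, 0 were higher and 9 lower under high IL-3, and 0 were higher and 10 lower under low IL-3. These are 75% and 83.3% lower, against 35.4% and 38.3% of all probe sets. The median changes were −0.91 and −1.0. Under 75th percentile scaling 2 were higher and 8 lower under high IL-3, and 2 higher and 7 lower under low IL-3, where 22.1% and 24.1% of all probe sets were lower and 49.9% and 49.2% higher. Nrf1 and the GABP pair, Gabpa and Gabpb1, are factors known to bind many promoters of respiratory chain genes. Nrf1 had 66.86 and 52.79 after 4 h of high IL-3 and 47.86 and 42.60 after 4 h of low IL-3, against 132.0 and 131.6 at 0 h, and had log2 changes of −0.97 under high IL-3 and −1.27 under low IL-3. Gabpb1 had 128.6 and 114.8 after 4 h of high IL-3 and 117.1 and 104.0 after 4 h of low IL-3, against 584.7 and 617.1 at 0 h, and had log2 changes of −2.17 under high IL-3 and −2.29 under low IL-3, with no array at 4 h above 128.6. Gabpa had log2 changes of −0.85 under high IL-3 and −0.67 under low IL-3. The coactivator genes Pprc1 (−3.38 under high IL-3 and −3.21 under low IL-3) and Ppargc1b (−2.19 under high IL-3 and −2.03 under low IL-3) were lower too. Tfam, which packages and transcribes mitochondrial DNA, had 320.6 and 263.5 after 4 h of high IL-3 and 377.0 and 264.6 after 4 h of low IL-3, against 1084 and 696.1 at 0 h, and had log2 changes of −1.53 under high IL-3 and −1.41 under low IL-3. Tfb1m (−1.99 under high IL-3 and −1.68 under low IL-3), Yy1 (−0.70 under high IL-3 and −0.72 under low IL-3) and Sp1 (−0.45 under high IL-3 and −0.47 under low IL-3) were also lower in both courses. Under 75th percentile scaling the calls of Sp1 were lost (−0.02 under high IL-3 and −0.03 under low IL-3). That of Gabpa under low IL-3 was lost as well (−0.24).

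**Figure D5:**
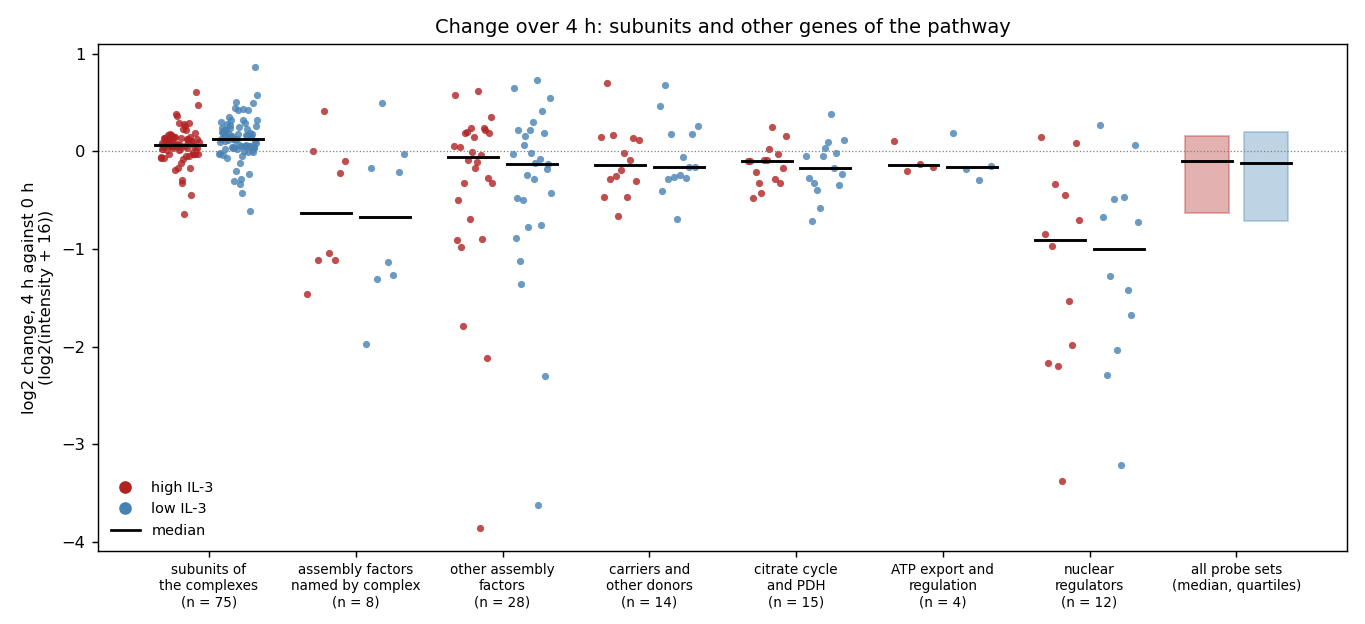
Log2 change from 0 h to 4 h of the 75 tested complex subunits, the 8 assembly factors taken by name and 5 lists of other pathway genes (PDH, pyruvate dehydrogenase), with red points at the left for high IL-3 and blue points at the right for low IL-3, with medians as black lines and the quartiles of all probe sets at the right. The subunits lie between −0.64 and 0.86, while the nuclear regulators have medians of −0.91 under high IL-3 and −1.0 under low IL-3.

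The short sites that these factors recognise can be read in the promoters of the genes. Of these sites 4 are shown as examples, from genes that kept their signal and from Ndufaf4, which did not. Others are not shown, among them an ETS core of Ndufaf1, which had the largest fall of the genes. Of the 87 genes, 73 had a promoter in the RefSeq table (GRCm38.p6). In the 250 bases before the start site, read on both strands, the NRF1 core GCATGCGC was in 8 of the 73 (11%), against 5.35% of 5647 genes with a tested probe set and 2.32% of all 27025 promoters. The ETS core CCGGAAG, the kind of site GABP binds, was in 13 of the 73 (17.8%), against 16.6% and 7.05%. GGGCGG, an Sp1 box, was in 41.1% of the 73 (62.2% and 32.9%), CCAAT in 39.7% (37% and 34.5%) and TATAAA in 8.22% (5.9% and 13%). Each motif was counted on its own, whether or not it overlapped another. No binding was measured here, and a match is a description of the sequence only. The windows run 5′ to 3′ on the strand of the gene, with the core in capitals, and the cores lie 40, 54, 111 and 66 bases before the start sites of Atp5g2, Sdhb, Ndufaf4 and Uqcr11, in that order.
Atp5g2 (chr15:102671069-102671098, minus strand): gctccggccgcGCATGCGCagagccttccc
Sdhb (chr4:140961206-140961235, plus strand): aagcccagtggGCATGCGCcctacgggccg
Ndufaf4 (chr4:24897961-24897990, plus strand): cagatgtctgcGCATGCGCctgtgcggaag
Uqcr11 (chr10:80406869-80406898, minus strand): ttctctcctccCCGGAAGtagatgtcaatg

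The first 3 windows hold the NRF1 core and the last the ETS core. Sdhb and Ndufaf4 carry the same 8 letters in their windows, and their transcripts had log2 changes of 0.03 and −1.12 under high IL-3 and of 0.07 and −1.30 under low IL-3. Atp5g2 was at 0.14 and Uqcr11 at 0.29 under high IL-3, and they were at 0.24 and 0.42 under low IL-3. All these changes were taken over a block of transcription, so they are no measure of promoter activity.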

How the data were processed

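In all, 10 arrays of 32Dcl3 RNA were analysed, 2 for each of 5 groups. The deposited intensities of 22690 probe sets are linear values, which the authors made with dChip at its default settings from all arrays together. The dChip version used is not given in the sources. Such normalization makes values relative to the array, so changes after transcription block are relative too. Probe sets were named from the platform annotation, which gives 1 symbol for 20393, several for 691 and none for 1606. All 87 genes matched RefSeq (GRCm38.p6) by gene ID. With 2 experiments, the number of arrays limits the precision. The p-values rest on the spread left after the level of each experiment is taken out, over 5 groups and moderated across probe sets.

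With limma 3.58.1 in R 4.3.3, log2(intensity + 16) was fitted for the 11856 probe sets with a mean of at least 50, with 5 groups, the experiment as a block, eBayes with a trend on signal, and Benjamini-Hochberg adjustment over all probe sets (threshold 0.05). The block was part of the design because each experiment divided 1 culture over its arrays, and deviations from the group means correlated at 0.762 to 0.887 within experiments. In 5 simulated runs of the IL-3 comparison (times averaged), with 200 of 11856 probe sets changed, the steps recovered 85.2% and 83.6% of those raised and lowered by 0.8 (log2), 36.4% and 34.4% of those by 0.4, and 5.23% of the calls were false. Figures and summaries used Python 3.11.15, pandas 2.3.3, numpy 2.4.6, scipy 1.17.1 and matplotlib 3.10.9.

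The genes, lists and tests were chosen with earlier results of these data known. The genes named are those past the threshold, up to 4 with the largest and 4 with the smallest change by complex under low IL-3 and 2 and 2 for the IL-3 difference, the paralog groups, complex II, genes below the limit, and up to 4 genes per other list. Alternatives were pseudocounts of 1 and 64, no filter or one at 200, 4 other scalings, no block, no trend, each array left out, and the second probe set of a gene.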

Additional observations from a re-analysis of the deposited data

How the results depend on the processing

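The counts of genes called for 4 h against 0 h moved with the scaling, the block and single arrays. Under 75th percentile scaling 74 were higher and 4 lower with high IL-3, and 72 higher and 4 lower with low IL-3. Median scaling, chosen after seeing the data, gave 74 and 4 with high IL-3 and 73 and 4 with low IL-3. Quantile normalization gave 52 and 6 with high IL-3 and 56 higher with low IL-3, and Gapdh scaling 6 lower with high IL-3. These scalings shift all probe sets: under the 75th percentile 49.9% of them were higher and 22.1% lower with high IL-3, and 49.2% and 24.1% with low IL-3. Under quantile normalization 39.6% of all probe sets were higher and 24.1% lower with high IL-3, and 40.5% were higher with low IL-3. With Gapdh scaling 31.8% were lower with high IL-3. Without the replicate block 0 genes were higher and 1 lower with high IL-3, and 6 higher and 4 lower with low IL-3. Of all probe sets 0.321% were then higher and 15.2% lower with high IL-3, and 1.25% and 18.1% with low IL-3. Without the variance trend 3 genes were higher and 6 lower with high IL-3, beside 9.2% and 33.7% of all probe sets. With low IL-3 14 were higher, beside 14.1%. With no filter 5 genes were higher with high IL-3, beside 4.12% of all 22690 probe sets. The cause of these moves was not tested, apart from the shift that a scaling makes by construction.

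With each array left out in turn, the high IL-3 course had 1 to 12 higher and 6 to 10 lower and the low IL-3 course 12 to 34 higher and 7 to 11 lower. The IL-3 comparison gave 0 to 1 higher at 2 h, and the effect at 4 h against that at 2 h gave 0 to 2 lower, both from the 2 h high IL-3 array of experiment 2. Every other alternative, and every other array left out, gave 0 calls for IL-3.

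The changes that turned positive are these. Under 75th percentile and median scaling, the high IL-3 course had 0.24 and 0.25 for Ndufab1, 0.13 and 0.14 for Ndufs1, 0.10 and 0.11 for Ndufs3, and 0.26 and 0.27 for Uqcrc2. The low IL-3 course had 0.14 and 0.15 for Ndufab1, 0.11 and 0.12 for Ndufs1, 0.16 and 0.17 for Ndufs3, 0.01 and 0.02 for Ndufs7, and 0.22 under each for Uqcrc2. With its second probe set Ndufab1 was at 0.04 in the low IL-3 course. The median of the genes stayed above that of all probe sets in both courses under every alternative, by 0.02 (quantile normalization, high IL-3) to 0.26 (75th percentile and median scaling, low IL-3). Signal limits what can be said of Cox4i2, Cox6b2, Cox7c and Cox8b.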
